A study of Mus musculus with 13 samples.

Results

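Fibrinogen is built from 3 chains, and the genes Fga, Fgb and Fgg encode the alpha, beta and gamma chain. These 3 genes, of 22180 genes measured, were followed across 13 microarrays of S1 proximal tubule segments from male C57BL/6J mice. They were selected by gene symbol: a probe set was taken where its only symbol was Fga, Fgb or Fgg, and each gene had 1 such probe set. The genes were proposed because earlier work on these data had shown them among the large differences between LPS and control, so their differences between groups are described here without being offered as a test.

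The LPS group (4 arrays) was from mice given 5 mg/kg intraperitoneal lipopolysaccharide 0111:B4 (LPS, the endotoxin in the outer membrane of Gram-negative bacteria) and sampled 24 h afterwards. Mice of the LPS/LPS group (5 arrays) were preconditioned with 0.25 mg/kg LPS, were given 5 mg/kg after 24 h, and were sampled 24 h after the large dose. The control group (4 arrays, titled sham) received saline vehicle. All groups shared strain and sex. Nothing in the labels says that arrays came from separate animals or how segments were isolated, so errors and p-values measure the spread between these samples only.

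Fibrinogen is a plasma protein made mainly by hepatocytes. Its chains are joined by disulphide bonds in the endoplasmic reticulum, and the assembled protein is secreted. Thrombin cuts the alpha and beta chains so that the protein polymerises into fibrin, while the gamma chain carries binding sites for platelet and leukocyte integrins. In liver the genes form one cluster and are switched on together in the acute phase by interleukin-6 through STAT3 and C/EBP factors, on a background of HNF1. Fibrinogen chain transcripts have also been described in injured kidney tubule cells.

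The upstream sequences of the genes are shown because all 3 genes were higher in the LPS group and share this textbook regulation. Each is the 250 bases before the annotated start, 5′ to 3′ on the gene's strand, from RefSeq in build GRCm38.p6. Fga lies on the plus strand (chr3:83025903-83026152), as does Fgg (chr3:83007474-83007723), and Fgb lies on the minus strand (chr3:83049864-83050113). Capitals mark the motif matches described below.
Fga: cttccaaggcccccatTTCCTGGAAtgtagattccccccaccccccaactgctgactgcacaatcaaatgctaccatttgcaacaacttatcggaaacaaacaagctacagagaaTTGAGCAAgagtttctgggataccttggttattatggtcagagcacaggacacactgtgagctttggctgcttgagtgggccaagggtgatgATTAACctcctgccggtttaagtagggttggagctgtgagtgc
Fgb: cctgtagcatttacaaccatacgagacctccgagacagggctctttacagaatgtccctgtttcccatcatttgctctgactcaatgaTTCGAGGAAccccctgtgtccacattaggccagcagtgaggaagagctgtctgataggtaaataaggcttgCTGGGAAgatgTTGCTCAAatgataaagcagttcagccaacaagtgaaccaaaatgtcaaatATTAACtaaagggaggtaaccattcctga
Fgg: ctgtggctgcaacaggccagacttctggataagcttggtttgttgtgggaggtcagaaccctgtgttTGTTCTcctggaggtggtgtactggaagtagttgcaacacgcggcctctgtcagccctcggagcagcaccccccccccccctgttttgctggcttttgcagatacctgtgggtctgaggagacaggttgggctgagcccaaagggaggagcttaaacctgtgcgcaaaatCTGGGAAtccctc

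The motifs were searched on both strands of the table's 300-base windows, which run from 250 bases before to 50 bases after the start. The HNF1 core GTTAAT was found 38 to 43 bases before the start of Fga and 24 to 29 bases before that of Fgb, on the opposite strand in both, and it occurred in 7.1% of all 32851 promoter windows. The C/EBP motif TTGCNNAA matched as the same 8 bases, TTGCTCAA, at 128 to 135 bases before Fga on the opposite strand and 73 to 80 bases before Fgb, against 10.8% of all windows. The palindromic STAT3 motif TTCNNNGAA, which reads on both strands, matched at 226 to 234 bases before Fga and 154 to 162 bases before Fgb (8.3% of all windows). The shorter STAT3 motif CTGGGAA, known from acute phase promoters, matched at 85 to 91 bases before Fgb and 7 to 13 bases before Fgg (11.1% of all windows). Fgg also held the glucocorticoid receptor core motif TGTTCT at 178 to 183 bases before its start (19% of all windows). No window of the 3 genes held TATAAA, a motif in 13.6% of all windows. In these windows each gene thus had a match to at least 1 STAT3 motif, but the share of all windows with either motif was not counted. Fgg had no match to the HNF1, C/EBP or palindromic STAT3 motif, and Fga had none to CTGGGAA. No 2 of the listed matches overlapped within a gene, apart from the palindrome's own strands. A match is a description of letters, not a measured binding site.

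**Figure D1:**
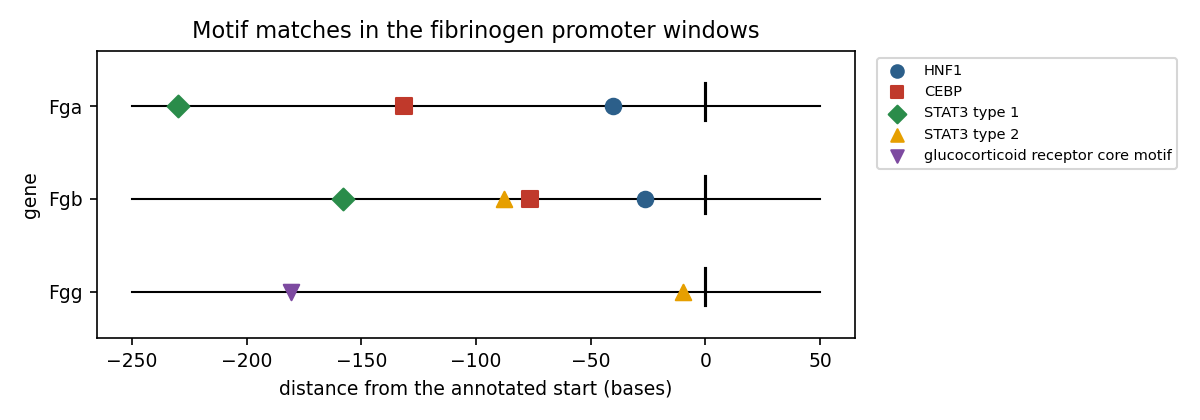
Positions of motif matches in the promoter windows of Fga, Fgb and Fgg. The x axis is the distance in bases from the annotated start (vertical tick), each line is a gene's 300-base window and each symbol the centre of a match. Fga and Fgb carry HNF1, C/EBP and STAT3 matches, and Fgg carries a STAT3 type 2 match next to its start and a glucocorticoid receptor core motif.

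Array medians lay between 3.68 and 3.81 on the log2 scale. As a background reference served a log2 level of 4.771, below which 95% of 1105 olfactory receptor genes, presumed silent in kidney, had their means. The sodium-phosphate cotransporter gene Slc34a1, a marker of the early proximal tubule, had levels of 9.48 to 10.91 in LPS, 8.31 to 10.06 in LPS/LPS and a mean of 11.23 in control arrays, with all LPS and LPS/LPS arrays below the controls. The S1 glucose transporter gene Slc5a2 did not exceed the reference on any array, with 4.15 to 4.32 in LPS, 3.72 to 4.49 in LPS/LPS and 4.34 to 4.71 in control arrays. Arrays fell into 7 with a wide and 6 with a narrow spread of log2 values. The narrow ones were LPS replicate 1, LPS/LPS replicates 2, 3 and 4, and control replicates 2 and 3, so differences within these classes are given below.

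The comparison of LPS with control addresses the effect of 5 mg/kg LPS alone on S1 segments. All 3 fibrinogen genes were higher on every LPS array than on every control array, and Fgg had the second highest difference of all 22180 genes. Differences are log2 differences, and a difference of 1 is a doubling. Control levels of all 3 genes lay below the background reference on every array, so the folds and ranks below describe the deposited values, and the folds may understate the difference in RNA. These are bulk samples, so more cells of a type and more RNA per cell cannot be told apart.

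Fgg, the gamma chain gene, had log2 levels of 5.51, 8.59, 6.16 and 6.56 in LPS replicates 1 to 4, against 3.99, 2.67, 4.31 and 4.07 in control replicates 1 to 4. The lowest LPS array stood 1.20 above the highest control array. The group means were 6.71 ± 1.33 in LPS and 3.76 ± 0.74 in control (SD, n = 4 each), a difference of 2.94 (limma's moderated SE 0.60), which is 7.7-fold. All 4 LPS arrays and no control array lay above the background reference.

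Fgb, the beta chain gene, had levels of 5.35, 6.81, 4.51 and 6.62 in LPS replicates 1 to 4, against 3.38, 3.70, 3.49 and 3.93 in control replicates 1 to 4. The groups did not overlap, with 0.58 between them. Fgb averaged 5.82 ± 1.09 in LPS and 3.63 ± 0.24 in control (SD, n = 4 each), a difference of 2.19 (SE 0.39) or 4.57-fold, the 8th highest of all genes. LPS replicates 1, 2 and 4 lay above the reference, and LPS replicate 3 and all controls did not.

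Fga, the alpha chain gene, had levels of 4.10, 6.18, 4.61 and 3.77 in LPS replicates 1 to 4, against 2.84, 3.15, 2.93 and 2.92 in control replicates 1 to 4. Again the groups did not overlap, with 0.62 between them. Fga averaged 4.67 ± 1.07 in LPS and 2.96 ± 0.13 in control (SD, n = 4 each), a difference of 1.71 (SE 0.38) or 3.26-fold, the 21st highest of all genes. Only LPS replicate 2 exceeded the reference, so the Fga difference rests largely on values below it.

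**Figure D2:**
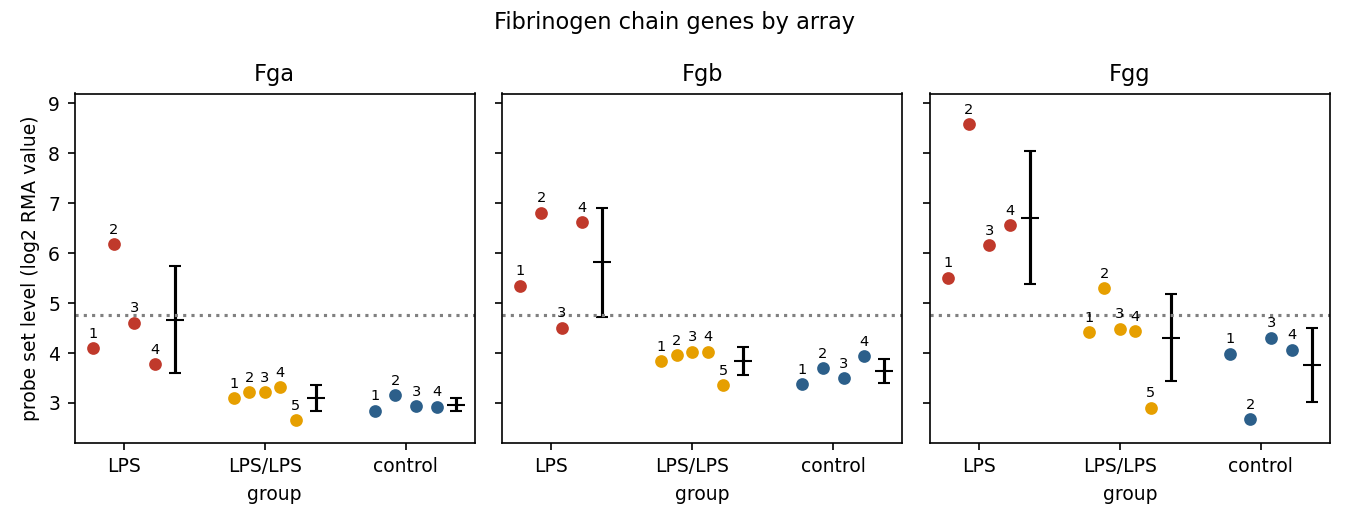
Log2 levels of Fga, Fgb and Fgg (y axis, RMA values) on each array, with groups on the x axis and replicate numbers above the points. Bars are mean ± SD (n = 4 LPS, 5 LPS/LPS, 4 control) and the dotted line is the background reference at 4.77. Every LPS array lies above every LPS/LPS and control array in all 3 panels.

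Of the 3 genes, 0 passed limma's Benjamini-Hochberg adjusted threshold of 0.05 over all genes in LPS vs control, where 0% of all genes passed, and 3 had an unadjusted p under 0.05, as did 6.43% of all genes. The share of all genes that, like these 3, were higher in LPS without overlap was 1.55%. The choice of the genes used this contrast, so nothing is read from these counts. Within the wide arrays (3 LPS against 2 control) the difference was 3.07 for Fgg, 2.32 for Fgb and 1.97 for Fga. Within the narrow arrays (1 LPS against 2 control) it was 2.02 for Fgg, 1.75 for Fgb and 1.06 for Fga. With LPS replicate 2 left out, the differences were 2.32 for Fgg, 1.86 for Fgb and 1.20 for Fga, the lowest of any single-array omission.

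The comparison of LPS/LPS with control asks how preconditioned and challenged segments differ from untreated ones. The fibrinogen genes had levels close to those of controls, although these mice had received the same large dose 24 h earlier. All 3 genes overlapped between the groups, where 0.839% of all genes were higher and 0.699% lower without overlap.

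Fgg had levels of 4.42, 5.30, 4.49, 4.44 and 2.90 in LPS/LPS replicates 1 to 5, around a mean of 4.31 ± 0.87 (SD, n = 5), against the control mean of 3.76 ± 0.74 (SD, n = 4). Replicate 2 was the only LPS/LPS array above the background reference. Fgb had levels of 3.83, 3.96, 4.03, 4.03 and 3.35 in the same order, with a mean of 3.84 ± 0.28 (SD, n = 5) against 3.63 ± 0.24 in control (SD, n = 4). Fga had levels of 3.10, 3.21, 3.21, 3.32 and 2.65, with a mean of 3.10 ± 0.26 (SD, n = 5) against 2.96 ± 0.13 in control (SD, n = 4). For each chain, LPS/LPS replicates 1 to 4 lay above the control mean and replicate 5 lay below it.

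The difference between LPS/LPS and control was 0.55 for Fgg (SE 0.57, 95% interval -0.68 to 1.78, limma adjusted p = 0.987). It was 0.21 for Fgb (SE 0.37, 95% interval -0.59 to 1.01, limma adjusted p = 0.991). For Fga it was 0.14 (SE 0.36, 95% interval -0.63 to 0.91, limma adjusted p = 0.991). The intervals reach from a modestly lower to a clearly higher level, so these arrays do not show that the groups are equal. In this comparison 0 of the 3 genes passed, where 0.00902% of all genes did, and 0 had an unadjusted p under 0.05, where 4.7% of all genes did. For Fgg the difference was -0.37 within the wide arrays (2 against 2) and 1.25 within the narrow arrays (3 against 2), so its direction differed between the classes. Without control replicate 2, the lowest Fgg value of the series, the Fgg difference was 0.18.

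The comparison of LPS/LPS with LPS asks what the small first dose changes in the reaction to the large one. All 3 fibrinogen genes were lower on every LPS/LPS array than on every LPS array. This contrast uses the same LPS arrays as LPS vs control, so it is not independent of it. The difference was -2.40 for Fgg (SE 0.57, 95% interval -3.62 to -1.17), with 0.21 between the highest LPS/LPS and the lowest LPS array. For Fgb it was -1.98 (SE 0.37, 95% interval -2.78 to -1.18), with a gap of 0.47. For Fga it was -1.57 (SE 0.36, 95% interval -2.34 to -0.80), with a gap of 0.45. Among all genes these were the 12th, 21st and 68th lowest differences for Fgg, Fgb and Fga.

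In LPS/LPS vs LPS, 0 of the 3 genes passed the adjusted threshold, which 0.0631% of all genes did, and 3 had an unadjusted p under 0.05, which 8.61% of all genes had. Being lower without overlap, as the 3 were, held for 1.3% of all genes. Within the wide arrays (2 LPS/LPS against 3 LPS) the difference was -3.44 for Fgg, -2.39 for Fgb and -1.98 for Fga. Within the narrow arrays (3 LPS/LPS against 1 LPS) it was smaller, at -0.77 for Fgg, -1.34 for Fgb and -0.85 for Fga. All 3 chain genes were among the 98 genes (0.442% of all) with every LPS array above all 9 other arrays.

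The chains were also compared array by array. LPS replicate 2 was the highest of the 13 arrays for all 3 genes, at 4.83 above the control mean for Fgg, 3.18 for Fgb and 3.22 for Fga. The other LPS arrays did not keep one order. LPS replicate 4 was next for Fgb (2.99) and Fgg (2.79) but lowest of its group for Fga (0.81). LPS replicate 3 was next for Fga (1.65) but lowest of its group for Fgb (0.88). LPS/LPS replicate 5 was the lowest of its group for all 3 genes. The spread also differed between groups: the SD of Fgb was 1.09 in LPS, 0.28 in LPS/LPS and 0.24 in control, and the LPS value exceeded that of 98.4% of all genes. Fgg was variable in every group, with an SD above that of 99.1% of genes in LPS, 97.7% in LPS/LPS and 97.5% in control.

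Because the LPS arrays form a cluster of their own, no correlation over pooled levels is given for the pairs of chains. Deviations from the group means, which the choice of genes did not use, were correlated over the 13 arrays, with exact two-sided tests over all 69120 permutations of arrays within groups. Pearson's r was 0.691 for Fga and Fgg (exact p = 0.0592, adjusted over 3 pairs 0.176; Spearman's rho 0.516, exact p = 0.116, adjusted 0.174). For Fgb and Fgg r was 0.591 (exact p = 0.117, adjusted 0.176; rho 0.555, exact p = 0.0646, adjusted 0.174). For Fga and Fgb r was 0.371 (exact p = 0.647, adjusted 0.647; rho 0.445, exact p = 0.205, adjusted 0.205). All 3 correlations were positive and 0 of 3 passed the threshold, so coordination within groups was not shown at this number of arrays.

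These correlations rest in part on single arrays. Without the 2 arrays whose deviation of the first gene was farthest from the median, r was 0.466 for Fga and Fgg (exact p = 0.191), 0.539 for Fgb and Fgg (exact p = 0.105) and 0.182 for Fga and Fgb (exact p = 0.766). Without LPS replicate 2 alone, r for Fga and Fgb was -0.40, so its sign turned. Without LPS/LPS replicate 5 alone, r was 0.672 for Fga and Fgg (exact p = 0.227), 0.547 for Fgb and Fgg (exact p = 0.327) and 0.324 for Fga and Fgb (exact p = 0.694). That array, at -0.45 for Fga and -0.49 for Fgb from its group means, is also among the 9 arrays described next. Over the 9 LPS/LPS and control arrays, where all 3 genes lay mostly below the background reference, r was 0.815 for Fga and Fgb (exact p = 0.0458, not adjusted), 0.429 for Fga and Fgg (exact p = 0.285) and 0.487 for Fgb and Fgg (exact p = 0.211).

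**Figure D3:**
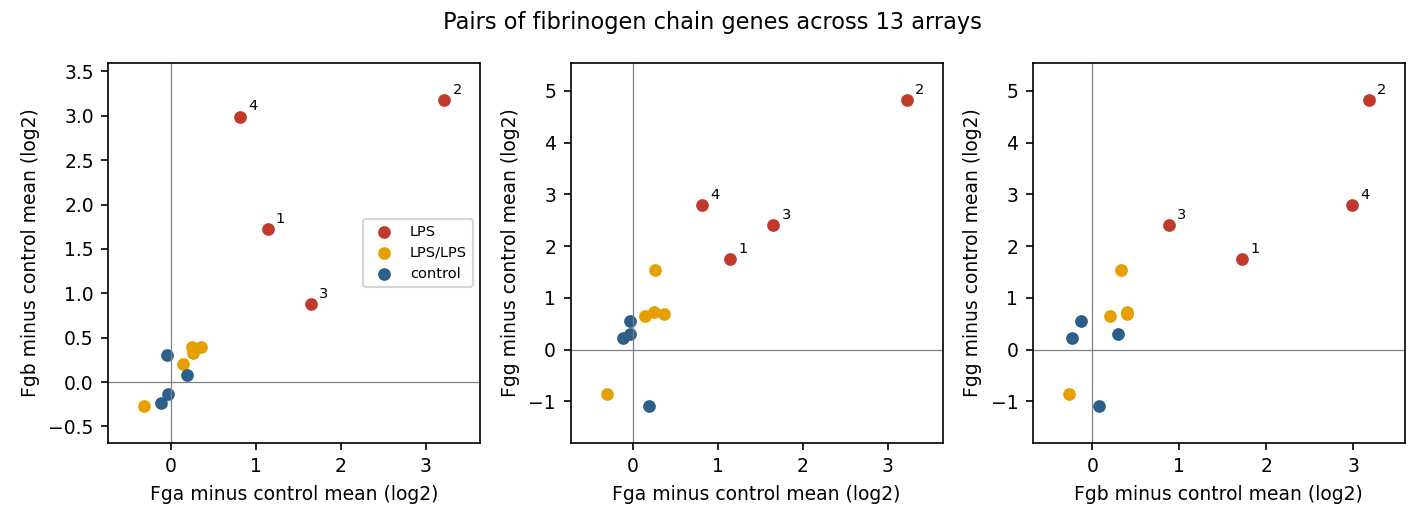
Levels of each pair of chain genes on the 13 arrays, as log2 difference from the control mean of each gene on both axes. Points are arrays, and LPS arrays carry their replicate number. LPS arrays lie apart at the upper right, with replicate 2 highest for every gene, while LPS/LPS and control arrays overlap one another and, for Fgg, spread from -1.09 (control replicate 2) to 1.54 (LPS/LPS replicate 2).

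The 3 genes are neighbours on chromosome 3, in the order Fgg, Fga, Fgb. Of the 5 protein-coding genes annotated on either side, 9 of 10 were measured. Their LPS minus control differences ran from -0.40 (Sfrp2, a secreted Wnt modulator) to 0.27 (Dchs2, a protocadherin), 0 of 9 separated the groups, and the lowest limma adjusted p was 0.754. The immediate neighbours were Lrat, the retinol esterifying enzyme, at 0.21 (SE 0.19, limma adjusted p = 0.877), and Plrg1, a spliceosome component, at -0.05 (SE 0.24, limma adjusted p = 0.977). Tlr2, the receptor for bacterial lipopeptides at the edge of this stretch, differed by -0.13 (limma adjusted p = 0.884). The large differences in the stretch were those of the fibrinogen genes.

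**Figure D4:**
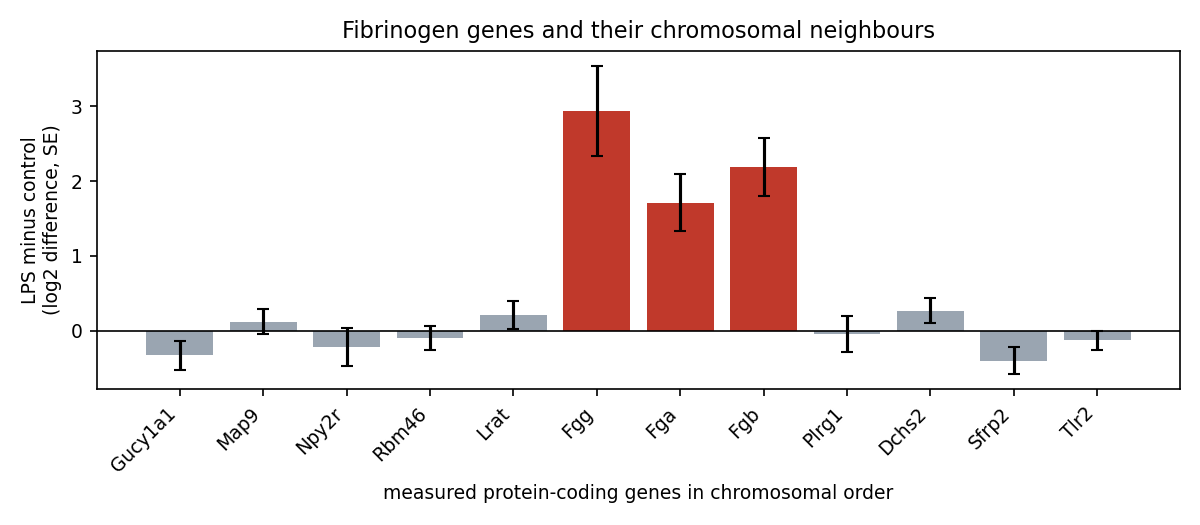
LPS minus control log2 differences (y axis, bars with limma's SE, n = 4 arrays each) of the fibrinogen genes and the measured protein-coding genes around them, in chromosomal order on the x axis. The 3 fibrinogen bars stand between 1.71 and 2.94, and the others between -0.40 and 0.27.

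In LPS vs control, differences of genes that act with fibrinogen in clotting lay between -0.34 and 0.39. Among 24 measured coagulation factors and inhibitors, 0 passed the adjusted threshold in any comparison, and at an unadjusted p under 0.05 in LPS vs control 0 were higher and 1 was lower, where 2.95% of all genes were lower. Their median LPS minus control difference was -0.01, against -0.02 over all genes. Over all genes 0% passed in LPS vs control, 0.00902% in LPS/LPS vs control and 0.0631% in LPS/LPS vs LPS. A count of 0 passing, here and in the lists below, is therefore not read as absence of a difference. F2, the prothrombin gene whose product cuts fibrinogen, averaged 3.66 ± 0.25 in LPS and 3.98 ± 0.29 in control (SD, n = 4 each). F13a1, the catalytic subunit of the factor that crosslinks fibrin, averaged 2.88 ± 0.17 in LPS and 3.22 ± 0.22 in control (SD, n = 4 each). Procr, the endothelial protein C receptor gene, averaged 4.21 ± 0.22 in LPS/LPS (SD, n = 5) and 3.98 ± 0.10 in control (SD, n = 4).

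Of 9 measured fibrinolysis genes 0 passed in any comparison, and 0 had an unadjusted p under 0.05 in LPS vs control. Their median difference was 0.09. Plat, the tissue plasminogen activator gene, averaged 5.17 ± 0.19 in LPS and 4.90 ± 0.22 in control (SD, n = 4 each). Plaur, the urokinase receptor gene, differed by 0.28 in LPS vs control (SE 0.17) and Anxa2, a plasminogen co-receptor gene, differed by 0.18 in LPS/LPS vs control. In each of these 2 lists only 1 gene averaged above the reference, and low levels limit what they can show.

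Among 13 genes for receptors of fibrinogen and fibrin, 0 passed in any comparison and 2 were higher and 1 lower at an unadjusted p under 0.05 in LPS vs control, where 3.49% of all genes were higher and 2.95% lower. Their median difference was -0.03, against -0.02 over all genes. Itgb3, the beta subunit of the platelet fibrinogen receptor, averaged 3.65 ± 0.32 in LPS and 4.10 ± 0.22 in control, and the groups did not overlap. Cdh5, the endothelial cadherin to which fibrin binds, averaged 4.49 ± 0.36 in LPS and 3.96 ± 0.27 in control (SD, n = 4 each for both genes). Of 13 receptor genes 0 had a mean above the background reference.

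Relatives of fibrinogen by domain came next. Of 14 measured genes with a fibrinogen-related domain, 0 passed in any comparison, and 2 were higher at an unadjusted p under 0.05 in LPS vs control, where 3.49% of all genes were. The share of all genes higher without overlap was 1.55%. The 2 genes were Angptl4, an inhibitor of lipoprotein lipase, and Angptl7, a secreted angiopoietin-like protein gene. Angptl4 averaged 4.55 ± 0.27 in LPS and 3.52 ± 0.32 in control (SD, n = 4 each), a difference of 1.03 (SE 0.17, limma adjusted p = 0.0688) without overlap. Angptl7 averaged 5.91 ± 0.38 in LPS and 5.23 ± 0.19 in control (SD, n = 4 each), a difference of 0.67 (SE 0.23, limma adjusted p = 0.634), also without overlap. The list's median difference was 0.05, against -0.02 over all genes.

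The genes that drive fibrinogen transcription in liver were examined next. Of 17 measured genes of interleukin-6 signalling, 0 passed in any comparison, 2 were higher at an unadjusted p under 0.05 in LPS vs control, where 3.49% of all genes were, and the median difference was 0.08, against -0.02 over all genes. Stat3, the transcription factor that carries the interleukin-6 signal, had levels of 5.27, 5.52, 5.42 and 6.09 in LPS replicates 1 to 4, against 4.49, 4.79, 4.58 and 4.94 in control replicates 1 to 4. The groups did not overlap and differed by 0.87 (SE 0.22, limma adjusted p = 0.422). LPS/LPS replicate 1, with a Stat3 level of 5.75, was within the LPS range although its fibrinogen levels were not. Osmr, the oncostatin M receptor gene, averaged 3.43 ± 0.57 in LPS and 2.93 ± 0.14 in control (SD, n = 4 each). Osm, its ligand gene, averaged 4.26 ± 0.13 in LPS/LPS (SD, n = 5) and 3.97 ± 0.11 in control (SD, n = 4).

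Of 7 measured hepatocyte nuclear factor genes, 0 passed and 0 had an unadjusted p under 0.05 in any comparison, with a median difference of -0.09 in LPS vs control. Hnf4a, which also maintains proximal tubule identity, averaged 6.02 ± 0.21 in LPS/LPS (SD, n = 5) and 6.44 ± 0.50 in control (SD, n = 4). Onecut1 differed by -0.27 and the bile acid receptor gene Nr1h4 by 0.30 in LPS vs control.

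For assembly and secretion of chains in the endoplasmic reticulum, 0 of 13 genes passed in any comparison. In LPS vs control 2 were higher at an unadjusted p under 0.05, where 3.49% of all genes were, and the median difference was 0.27, against -0.02 over all genes. In LPS/LPS vs LPS 5 of 13 were lower at an unadjusted p under 0.05, where 4.49% of all genes were, with a median difference of -0.48 against 0.05 over all genes. Hspa5, the chaperone BiP, averaged 5.80 ± 0.30 in LPS and 5.09 ± 0.44 in control (SD, n = 4 each), a difference of 0.71 (SE 0.21, limma adjusted p = 0.551). Pdia6, a disulphide isomerase gene, differed by 0.57 (SE 0.24). Canx, the lectin chaperone calnexin, averaged 5.41 ± 0.54 in LPS/LPS (SD, n = 5) and 6.29 ± 0.86 in control (SD, n = 4).

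Of 18 measured genes of other acute phase proteins, most of them secreted, 0 passed in any comparison. In LPS vs control 5 were higher at an unadjusted p under 0.05, where 3.49% of all genes were. The 18 include the metallothionein genes Mt1 (difference 1.205) and Mt2 (0.239), which do not code for secreted proteins. Their median difference was 0.20, against -0.02 over all genes. Orm2, an orosomucoid gene, had levels of 6.79, 9.09, 8.08 and 8.69 in LPS replicates 1 to 4, against 5.62, 4.92, 5.82 and 6.02 in control replicates 1 to 4. Orm2 differed by 2.57 in LPS vs control (SE 0.45, limma adjusted p = 0.0844), without overlap. Like Fgg it was highest on LPS replicate 2 and lowest of its group on LPS replicate 1. Lcn2, the lipocalin 2 gene, differed by 1.80 in LPS vs control (SE 0.30, limma adjusted p = 0.0638), also without overlap. Both differences exceeded that of Fga, and that of Orm2 also exceeded that of Fgb. Lcn2 averaged 4.57 ± 0.39 in LPS/LPS (SD, n = 5) and 3.81 ± 0.20 in control (SD, n = 4), a difference of 0.76, larger than that of any fibrinogen gene in this comparison, without overlap, though it did not pass (limma adjusted p = 0.987).

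**Figure D5:**
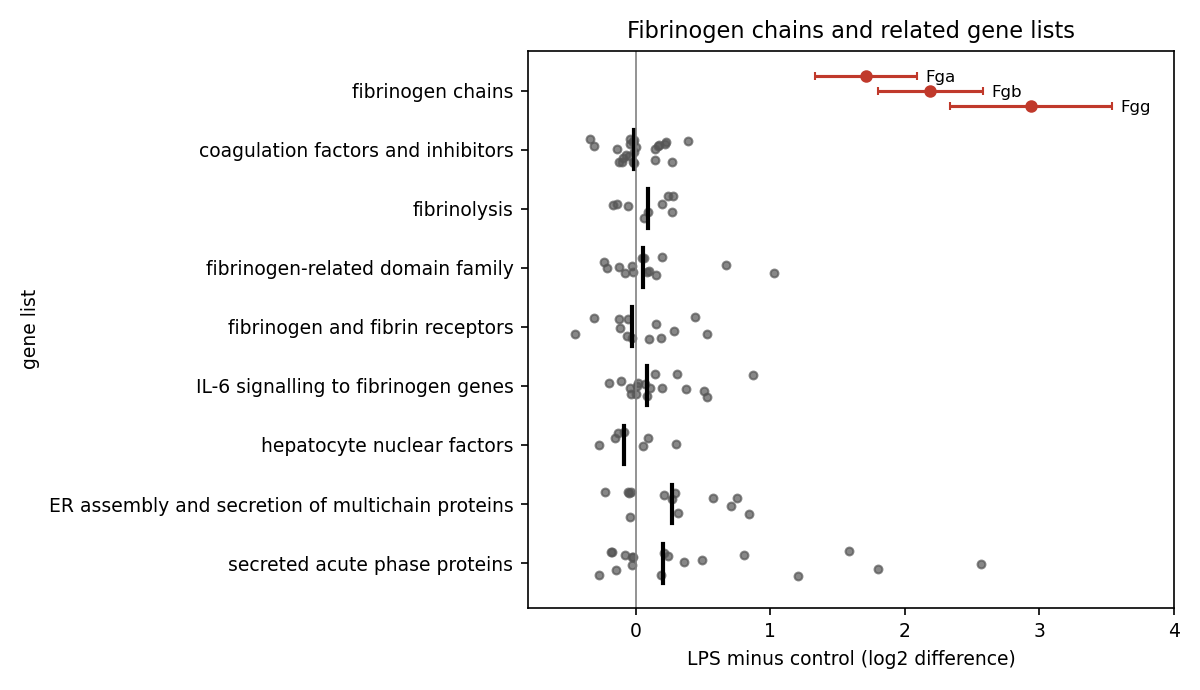
LPS minus control log2 differences (x axis) of the fibrinogen chain genes, with limma's SE, and of the measured members of 8 related gene lists (y axis; grey points are genes, black bars list medians, n = 4 arrays per group). The chains lie between 1.71 and 2.94, and list medians between -0.09 and 0.27.

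Genes were ranked by likeness to the mean standardised pattern of the 3 chains over the 13 arrays, as a description across arrays that share the separation of the LPS group. Cd14, the LPS co-receptor gene, was most alike (r = 0.97). It had levels of 4.78, 6.16, 4.87 and 5.05 in LPS replicates 1 to 4, against 3.61, 3.68, 3.87 and 3.72 in control replicates 1 to 4, and like the chains it was highest on LPS replicate 2. In LPS/LPS arrays Cd14 ran from 3.42 to 4.47, again with replicate 5 lowest.

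Next in likeness were Pdk4, the kinase that restrains pyruvate oxidation (r = 0.929), Sik1, a salt-inducible kinase gene (r = 0.921), and Igtp, an interferon-inducible GTPase gene (r = 0.915). Saa2, a serum amyloid A gene (r = 0.911), the noncoding RNA gene Zfas1 (r = 0.909), the Mediator subunit gene Med12 (r = 0.905) and the chemokine gene Cxcl9 (r = 0.903) followed. Saa2 averaged 5.51 ± 1.46 in LPS, 3.97 ± 0.52 in LPS/LPS (n = 5) and 3.93 ± 0.44 in control (SD, n = 4 for LPS and control). Ranked on deviations from the group means instead, the genes most alike were Lbhd2 (r = 0.944), Pcyt1a (r = 0.944), Wipi1 (r = 0.931), Mfsd2a (r = 0.913) and Saa2 (r = 0.907). Each of these was highest of the LPS group on LPS replicate 2, as the chains were. Both rankings take the highest of very many correlations, and no chance level was computed. Saa2 was the gene present in both rankings. The other 4 of the second ranking differed by 0.19 or less in LPS vs control.

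Markers of cells that could bring fibrinogen transcripts or protein were set beside these values. Hepatocyte markers had a list mean of 3.87 to 4.16 on LPS arrays, 3.79 to 4.49 on LPS/LPS arrays and 4.25 to 4.34 on control arrays. In LPS vs control 0 of 19 passed, where 0% of all genes did, and the median difference was -0.16. Alb, the albumin gene and the defining hepatocyte product, had levels of 6.32, 5.96, 5.04 and 5.91 in LPS replicates 1 to 4, against 5.76, 5.52, 5.91 and 6.04 in control replicates 1 to 4, a difference of 0.00. Hepatocyte list means were lower on every LPS array than on every control array, but single dim genes weigh on these means. Serpina1c, with a mean below the reference, ran from 1.78 to 2.02 in LPS and from 2.34 to 5.71 in control arrays. Of the 19 genes, 6 had a positive LPS minus control difference, and Apob was higher in LPS without overlap (0.48). LPS/LPS replicate 5, the lowest of its group for all 3 chains, was also the lowest of its group for the hepatocyte list (3.79) and for Alb (5.45). This array also differed more broadly. The 95th percentile of olfactory receptor genes on single arrays ran from 4.65 to 5.91 and was highest on it. Over all genes its deviations from the group mean correlated at 0.544 with those of LPS replicate 4. Whether its low values belong to the array as a whole was not tested. In the hepatocyte list 9 of 19 genes had a mean above the background reference. Platelet and megakaryocyte markers had a list mean of 3.60 to 3.85 in LPS and 3.66 to 3.93 in control arrays, and Pf4, platelet factor 4, averaged 3.33 in LPS and 3.39 in control.

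Endothelial markers had a list mean of 3.85 to 4.20 on LPS arrays, 3.95 to 4.04 on LPS/LPS arrays and 3.73 to 3.83 on control arrays. Macrophage and monocyte markers had 3.89 to 4.12 on LPS, 3.89 to 4.11 on LPS/LPS and 3.78 to 3.88 on control arrays. In both lists every LPS and LPS/LPS array thus lay above every control array, by a small margin. In LPS vs control 8 of 8 endothelial and 6 of 8 macrophage and monocyte markers had a positive difference. Loop, distal tubule and collecting duct markers had a list mean of 5.64 on LPS replicate 3 and 4.02 to 4.15 on the other LPS arrays, against 3.87 to 4.27 on control arrays. LPS replicate 3 was the lowest LPS array for Fgb, and among all 13 arrays it ranked 2 from the highest for Fga and 3 for Fgg. S1 and S2 markers ran from 5.02 to 6.47 in LPS, 4.91 to 5.51 in LPS/LPS and 5.43 to 6.14 in control arrays. Neutrophil markers averaged 3.32 in LPS and 3.52 in control, lymphocyte markers 3.77 in LPS and 3.90 in control, and podocyte markers 4.17 in LPS and 4.25 in control, with overlapping arrays. The defining markers Pecam1 (4.41 in LPS, 3.66 in control) and Adgre1 (3.85 in LPS, 3.74 in control) averaged below the background reference. Cx3cr1, also of the macrophage list, averaged 5.73 over all arrays, above it, and differed by -0.14 in LPS vs control. In LPS vs control 0 members of these lists passed, where 0% of all genes did, so nothing is read from this count. The part of such cells in the fibrinogen levels was not tested.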

How the data were processed

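S1 segments were profiled on Affymetrix whole-transcript arrays, 1 per sample, from 2 ng of RNA labelled by the WT Pico method, per the labels' protocols. The authors deposited log2 expression values for 41345 probe sets, and the submitters' processing notes name RMA and Partek 6.6. In RMA each probe set becomes 1 log2 value, and remaining background compresses differences of dim genes. The sources used here do not give the background step, normalization or build. Precision is limited by the array number, and detection calls were not used.

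Gene names came from GEO's platform annotation: 23521 probe sets had 1 symbol, 1814 several and 16010 none. For genes with several probe sets the one with the highest mean was used, which left 22180 genes. All 13 arrays entered 1 fit in limma 3.58.1 (R 4.3.3) without covariates, with Benjamini-Hochberg adjustment over all genes and a threshold of 0.05. Fits were tested on simulated data. The split into wide and narrow arrays was at a standard deviation of 1.328, in the largest gap.

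The members, lists and tests were chosen with earlier results of these data known. Named from each list were members past the threshold, or else the 2 with the lowest p in LPS vs control and the 1 in LPS/LPS vs control, plus the 8 and 5 genes most like the chains. Predicted genes, small RNAs and odorant and vomeronasal receptors were left out of these. Outside this rule, the marker genes named singly (Alb, Pf4, Pecam1, Adgre1, Slc34a1, Slc5a2) are defining members of the marker lists, and they and the chromosomal neighbours were picked with their values known. Correlations were tested by full enumeration in place of resampling. Promoters and gene order are from RefSeq (GRCm38.p6), where all 3 genes matched by symbol. Replicate numbers were not taken as pairs: same-numbered arrays of different groups had correlated deviations of -0.351 to 0.215 over 12 pairs.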

Additional observations from a re-analysis of the deposited data

Results flagged for a closer look

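Among 108 combinations of gene and group, over the fibrinogen genes and the other genes named by rule, 9 had 1 array far from the rest by Dixon's test, where chance flags about 1 in 20. None of the 9 combinations of the fibrinogen genes was among them. The other genes were picked by their values on these same arrays, so the rate of 1 in 20 does not strictly apply.

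Control replicate 1 stood out for F2, at 4.41 where the other controls lay at 3.83 to 3.84, and for Pcyt1a, at 5.12 against 4.96 to 4.97. Control replicate 3 stood out for Plat, at 4.57 against 4.99 to 5.03, and for Mfsd2a, at 4.31 against 4.20 in the others. LPS replicate 2, the highest array for all 3 chains, stood out for Sik1, at 6.62 against 5.62 to 5.79 in the other LPS arrays, and for Cxcl9, at 5.79 against 3.82 to 4.01. LPS/LPS replicate 5, the lowest of its group for all 3 chains, stood out for Plaur, at 4.00 against 4.45 to 4.55, for Med12, at 3.49 against 3.80 to 3.88, and for Pcyt1a, at 4.56 against 4.89 to 5.02. Sik1, Cxcl9, Med12, Pcyt1a and Mfsd2a were named for their likeness to the chains. Standing out on LPS replicate 2 or LPS/LPS replicate 5 follows in part from that choice, so nothing is read from it.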

How the results depend on the processing

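The 3 fibrinogen differences kept their direction in 74 of 74 refits of LPS vs control and 74 of 74 of LPS/LPS vs LPS. For these genes every LPS array lay above all 9 other arrays, so leaving out arrays could not turn a direction. Several refits also left the estimate unchanged, so these 2 counts are no support. In LPS/LPS vs control 71 of 74 kept it, and the within-wide values, chosen after seeing the data, turned (-0.37 for Fgg, -0.06 for Fgb, -0.01 for Fga). Past the threshold came Fgb in LPS vs control with array weights (2.51, limma adjusted p = 0.0161) and among the 3126 genes above the background reference (2.19, adjusted p = 0.0409), Fgg with array weights (3.56, adjusted p = 0.0382), and Fgb in LPS/LPS vs LPS with array weights (-2.28, adjusted p = 0.024) and above the reference (-1.98, adjusted p = 0.0307). Genes were kept above the reference by their highest group mean. Fga, with no group mean above the reference, was not among those genes. Fgb and Fgg were kept only for their LPS means (5.82 and 6.71). Their LPS/LPS means (3.84 and 4.31) and control means (3.63 and 3.76) lay below the reference. The adjusted p-values of that setting are therefore no support. Narrow-array values that moved by more than the replicate spread were 1.06 for Fga in LPS vs control, and -0.85 for Fga, -1.34 for Fgb and -0.77 for Fgg in LPS/LPS vs LPS, where Fgg was -3.44 in wide arrays.

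Leaving out each array in turn gave 1.20 to 2.01 for Fga, 1.86 to 2.63 for Fgb and 2.32 to 3.34 for Fgg in LPS vs control. It gave -1.87 to -1.06, -2.42 to -1.65 and -2.79 to -1.77 in LPS/LPS vs LPS, and 0.08 to 0.25, 0.13 to 0.34 and 0.18 to 0.90 in LPS/LPS vs control, in the same order. Fgb passed without LPS replicate 3 (limma adjusted p = 0.00863 in LPS vs control, 0.00983 in LPS/LPS vs LPS) and, in LPS/LPS vs LPS, without LPS replicate 1 (limma adjusted p = 0.042). Correlations within groups ran from -0.40 to 0.82 for Fga and Fgb, 0.218 to 0.808 for Fga and Fgg, and 0.336 to 0.694 for Fgb and Fgg. That of Fga and Fgg had an exact p under 0.05 without control replicate 2 (exact p = 0.0274) and without LPS replicate 4 (exact p = 0.0413). The Fga and Fgg correlation was 0.705 after quantile normalization (exact p = 0.0434) and 0.677 after median centring and scaling (exact p = 0.0408). Fga and Fgb reached 0.815 without the LPS group (exact p = 0.0458, chosen after seeing the data). These exact p-values were not adjusted over the 3 pairs, unlike those of the main result, so they are not counted as passing.

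Counts of genes called moved with the setting. In LPS vs control (0 in the fit reported) they were 30 with array weights, 19 above the reference, 9 median centred and scaled, 7 with quantile normalization, 7 with trend and robust moderation, 3 with the replicate block, and 0 to 24 leaving out 1 array, the highest without LPS replicate 1. In LPS/LPS vs LPS (14) they were 7 over all probe sets, 41 with array weights, 60 above the reference, 2 with only the 2 groups, 4 with the replicate block and 5 to 96 leaving out 1 array, the highest without LPS replicate 1. In LPS/LPS vs control (2) they were 0 over all probe sets, 4 with array class as a block, 1 median centred and scaled, 0 with only the 2 groups, 4 with quantile normalization, 0 with the replicate block, and 0 to 3 leaving out 1 array. No fibrinogen gene was called in the fit reported or with the replicate block. LPS and control both hold replicates 1 to 4, so the block could not change their differences of 2.94, 2.19 and 1.71 for Fgg, Fgb and Fga. With it the limma adjusted p-values were 0.284, 0.126 and 0.325 in the same order. Fgg moved to -2.04 in LPS/LPS vs LPS (limma adjusted p = 0.464) and to 0.90 in LPS/LPS vs control (limma adjusted p = 0.985). The cause of these shifts was not tested.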
